A study of Mus musculus with 16 samples.

Results

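The comparison was of histone H3 lysine 27 acetylation (H3K27ac) between wild-type mouse embryonic stem cells directed towards endoderm and towards mesoderm, with 1 peak list a side. The members were the peaks present in one lineage only, that is, peaks sharing no base with any peak of the other lineage. They numbered 10188 of the 26617 peaks on chromosomes 1 to 19, X and Y in both lists, and the 12 lists of the series held 223964 such peaks in all. Endoderm-only peaks comprised 1650 promoter peaks (within 1000 bp of an annotated gene start), 3683 distal peaks (more than 2500 bp from every gene start) and 356 in between. Mesoderm-only peaks comprised 2574, 1634 and 291 of these classes.

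The study took the mouse embryonic stem cell line CJ9, either wild type (WT) or arid4b-delta, and directed it to endoderm or to mesoderm for 5 days. Arid4b is a subunit of the Sin3 histone deacetylase complex, and the labels give no further detail of the arid4b-delta allele or of the inducing agents. All cells were fixed with formaldehyde for 8 min, and H3K4me3, H3K27me3 and H3K27ac were profiled by chromatin immunoprecipitation and sequencing, with 1 library for each mark, genotype and lineage. The arid4b-delta lists and the other marks are used below only as further readouts at the WT members, and the 4 input DNA samples were not analysed here. With 1 library a side no test between the lineages was possible, and the exact (Clopper-Pearson) 95% intervals given for shares cover counting error only.

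H3K27ac is placed by acetyltransferases of the CBP family and marks active promoters and active enhancers, whereas H3K4me3 marks the starts of most expressed or poised genes. H3K27me3 is the mark of Polycomb repression and occupies the same lysine, so that one histone tail carries either acetylation or methylation there. Stem cells leaving pluripotency pass through an epithelial, epiblast-like state, and cells entering mesoderm lose E-cadherin and tight junctions, gain N-cadherin and vimentin, and pass through a T-expressing primitive-streak-like stage.

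A set of 8 promoter sequences is shown first because, of 7 motifs searched, the lineage-only promoters stood furthest apart in the E-box CACCTG, whose other strand reads CAGGTG and which is bound by Snail, Zeb and other E-box factors. Each line is the 250 bases before a RefSeq gene start (GRCm38.p6, the mm10 assembly), read 5′ to 3′ on the gene's strand, with every E-box of this form in capitals. The first 6 genes code for epithelial proteins and had promoter H3K27ac in endoderm only: Crb3, an apical polarity protein (chr17:57061951-57062200, plus strand), Spint2, a membrane protease inhibitor (chr7:29281978-29282227, minus strand), Rab25, an epithelial trafficking GTPase (chr3:88548280-88548529, minus strand), the claudins Cldn7 (chr11:69965171-69965420, plus strand) and Cldn4 (chr5:134946935-134947184, minus strand), and occludin, Ocln (chr13:100552499-100552748, minus strand). T (chr17:8434173-8434422, plus strand) and Tbx6 (chr7:126781233-126781482, plus strand), T-box factors of the streak and of paraxial mesoderm, had it in mesoderm only and are shown for contrast.
Crb3: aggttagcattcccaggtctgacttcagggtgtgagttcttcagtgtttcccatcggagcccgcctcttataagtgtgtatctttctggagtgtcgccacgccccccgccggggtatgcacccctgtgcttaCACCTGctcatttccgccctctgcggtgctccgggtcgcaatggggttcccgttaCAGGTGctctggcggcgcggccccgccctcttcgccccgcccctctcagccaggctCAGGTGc
Spint2: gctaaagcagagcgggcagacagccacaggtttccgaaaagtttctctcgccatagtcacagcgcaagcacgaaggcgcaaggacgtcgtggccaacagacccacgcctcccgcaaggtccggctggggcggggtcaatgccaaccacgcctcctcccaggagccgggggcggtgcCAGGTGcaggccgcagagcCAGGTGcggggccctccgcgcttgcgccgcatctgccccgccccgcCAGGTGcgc
Rab25: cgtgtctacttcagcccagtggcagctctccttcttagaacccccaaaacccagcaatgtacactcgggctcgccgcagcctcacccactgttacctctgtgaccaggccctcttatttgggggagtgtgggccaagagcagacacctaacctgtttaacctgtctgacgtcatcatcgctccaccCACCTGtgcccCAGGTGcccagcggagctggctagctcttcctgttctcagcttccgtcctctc
Cldn7: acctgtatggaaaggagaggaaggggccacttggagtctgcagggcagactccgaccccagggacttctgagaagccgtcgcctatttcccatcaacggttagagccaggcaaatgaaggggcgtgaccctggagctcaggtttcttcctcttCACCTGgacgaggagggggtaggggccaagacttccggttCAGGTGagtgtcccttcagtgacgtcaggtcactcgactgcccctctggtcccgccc
Cldn4: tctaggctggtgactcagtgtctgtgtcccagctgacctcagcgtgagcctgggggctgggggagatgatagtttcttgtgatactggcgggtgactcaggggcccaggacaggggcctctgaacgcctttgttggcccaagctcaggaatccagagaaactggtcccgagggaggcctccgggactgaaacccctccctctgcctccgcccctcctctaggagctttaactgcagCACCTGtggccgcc
Ocln: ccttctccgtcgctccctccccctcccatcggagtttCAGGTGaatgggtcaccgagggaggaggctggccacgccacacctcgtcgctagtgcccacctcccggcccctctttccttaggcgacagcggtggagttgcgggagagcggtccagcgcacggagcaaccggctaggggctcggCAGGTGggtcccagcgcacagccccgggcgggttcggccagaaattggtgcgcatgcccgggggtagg
T: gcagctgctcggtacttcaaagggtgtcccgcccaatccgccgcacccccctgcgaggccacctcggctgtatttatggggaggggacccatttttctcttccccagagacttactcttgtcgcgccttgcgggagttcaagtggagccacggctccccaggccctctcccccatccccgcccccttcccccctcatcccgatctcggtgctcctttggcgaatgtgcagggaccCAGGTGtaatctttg
Tbx6: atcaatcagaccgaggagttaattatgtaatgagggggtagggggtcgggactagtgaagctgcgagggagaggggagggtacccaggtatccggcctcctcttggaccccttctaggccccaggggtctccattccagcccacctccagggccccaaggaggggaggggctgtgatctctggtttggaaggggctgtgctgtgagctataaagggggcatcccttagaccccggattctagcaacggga

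In these windows the Crb3 E-boxes began 118, 63 and 7 bp before the start, those of Spint2 74, 55 and 9 bp, those of Rab25 64 and 53 bp, those of Cldn7 97 and 57 bp, that of Cldn4 14 bp and those of Ocln 213 and 68 bp before it. T held 1 such E-box, 15 bp before its start, and Tbx6 held none. Crb3, Cldn7 and Ocln have a second annotated start each, not shown: that of Crb3, close to the first, holds the same 3 E-boxes, and those of Cldn7 and Ocln hold none, so the starts shown for these genes are ones with matches. A match is a description of the letters, not a binding site.

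The WT endoderm list held 14216 peaks and the WT mesoderm list 12496, with median lengths of 274 and 294 bp. Read depth cannot be taken from peak lists and is unknown. The strength quoted for a peak is its fold enrichment, the authors' own value from the peak caller, which depends on the background of its library, so values of different libraries are set side by side and not compared. A peak absent from a list was not called there, which is not a measured absence of acetylation, and in these bulk samples fewer acetylated cells and less acetylation per cell cannot be told apart. Among the 12 lists the number of peaks ran from 6150 (WT mesoderm H3K27me3) to 35884 (arid4b-delta endoderm H3K27ac), and the WT endoderm H3K27me3 list had 10326. Of 20 housekeeping genes, 16 had promoter H3K27ac in both WT lineages and none in 1 lineage only, and at equal length Actb became mesoderm only, leaving 15 in both.

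The cell identity named by the labels was checked on marker lists. The transcription factors that define endoderm, Sox17, Foxa2, Gata4 and Gata6, had no promoter H3K27ac in WT endoderm, and 3 of them carried promoter H3K27me3 there, at fold enrichments of 2.67 for Sox17, 3.04 for Foxa2 and 1.98 for Gata6. Of 26 definitive endoderm genes, 5 had promoter H3K27ac in the endoderm list and 2 in the mesoderm list. Those 5 were the keratins Krt8 and Krt18, the claudins Cldn6 and Cldn4, and E-cadherin (Cdh1), which other epithelia express as well. The 2 in mesoderm were Cdh1 and Foxa3, a forkhead factor of endoderm, which was in mesoderm only, at 5.16, against the labels. Over all 21883 protein-coding genes 5955 were acetylated in endoderm and 6622 in mesoderm. The share of the definitive endoderm list was thus below that of all genes in both lists. Of the core pluripotency factors, Pou5f1 and Sox2 were acetylated in both lists and Nanog in endoderm only, Pou5f1 at 10.997 in endoderm and 10.5 in mesoderm and Sox2 at 7.03 and 7.76. The WT endoderm library is therefore called by its label below, without the meaning that its defining factors were acetylated. In WT mesoderm, paraxial and streak genes were acetylated as described below, whereas none of 26 lateral, cardiac, blood and endothelial genes was, Kdr among them, in either list, nor were the streak factors Eomes, Mixl1 and Mesp1. Markers of other cells the cultures could hold had few promoter peaks: of 15 extraembryonic endoderm genes Lamb1 and Apoe were acetylated in both lists, of 13 fibroblast genes Cald1 in both, of 13 trophoblast genes Ets2 in mesoderm only, and of 16 germline genes none, while the collagens Col1a1, Col1a2 and Col3a1 and the primitive endoderm factor Sox7 had no promoter H3K27ac in either. Distal peaks nearest to extraembryonic endoderm genes numbered 6 in endoderm only and 0 in mesoderm only, and those nearest to germline genes 0 and 3.

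At the level of gene promoters, mesoderm-only acetylation was the more frequent. Of 21883 protein-coding genes, 5955 had H3K27ac within 1000 bp of a start in endoderm and 6622 in mesoderm, and 5217 had it in both. It was in endoderm only at 738 genes, 3.37% of all genes and 10% of the 7360 genes acetylated in either lineage. It was in mesoderm only at 1405 genes, 6.42% of all genes and 19.1% of those acetylated. Mesoderm thus held 65.6% (63.5% to 67.6%) of the promoters that differed. Counted by peak, the promoter peaks in one lineage only were weaker within their own lists than shared ones: over the 1650 endoderm-only promoter peaks the median fold enrichment was 5.97 against 8.52 for shared endoderm promoter peaks, and over the 2574 mesoderm-only ones it was 6.13 against 9.75 for shared mesoderm ones.

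Distal peaks went the other way. Endoderm-only peaks made up 70.3% of the distal endoderm peaks, and mesoderm-only peaks 50% of the distal mesoderm peaks, whereas at promoters only 20.1% and 29.97% of the peaks were in one lineage only. Endoderm held 69.3% of the distal peaks that differed, 3683 against 1634. Endoderm-only distal peaks had a median fold enrichment of 6.06, and 284 of them reached 10 or more. Mesoderm-only distal peaks had a median of 5.31, and 40 reached 10. The median distance to the nearest gene start was 35980 bp for endoderm-only peaks and 30131.5 bp for mesoderm-only ones, and 1258 and 632 of them lay within 20000 bp of a start.

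Cutting the lists to equal length kept both directions, of which only the distal one could have changed. The endoderm list was cut by fold enrichment to 12496 peaks, which dropped its 1720 weakest, while the mesoderm list stayed whole. Such a cut can remove endoderm-only calls and add mesoderm-only ones, but not the reverse. It therefore could not end a mesoderm-only call or reverse the promoter direction. The last peak kept and the first dropped had the same fold enrichment, 4.85, with 17 peaks tied at this value and 1 of them kept. Endoderm-only promoters then numbered 621 (2.84% of all genes, 8.57% of those acetylated), all of them among the 738, and mesoderm-only promoters 1644 (7.51% and 22.7%), with all 1405 retained. Mesoderm's share of the differing promoters was 72.6% (70.7% to 74.4%). Endoderm-only distal peaks numbered 3110 (70.1% of the distal endoderm peaks kept) and mesoderm-only ones 1849 (56.6%). A stricter definition, no peak of the other lineage within 5000 bp, left 680 and 1331 promoters and 2838 and 1193 distal peaks in the full lists.

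**Figure D1:**
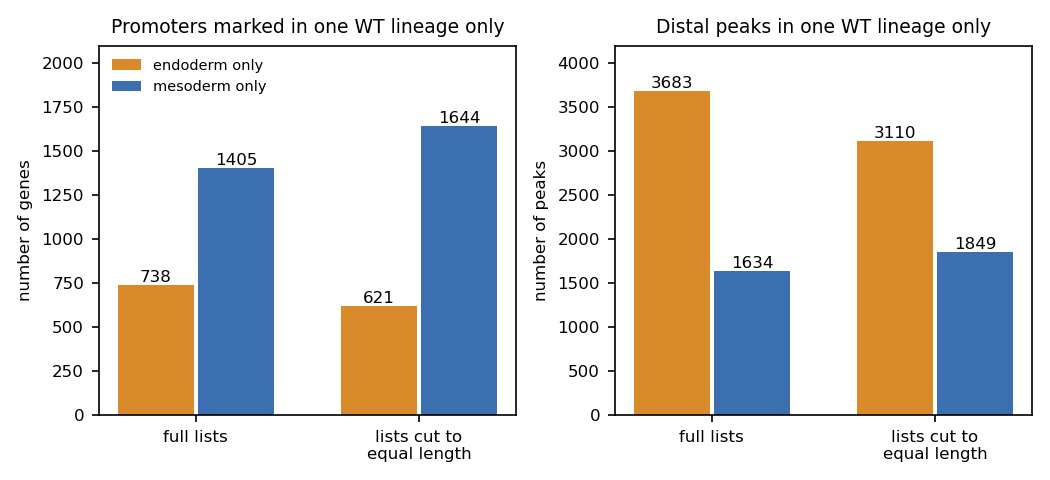
Number of genes with promoter H3K27ac in one WT lineage only (left) and number of distal H3K27ac peaks in one WT lineage only (right), from the full lists and after both were cut to 12496 peaks. Bars are counts from 1 library a side. Promoters were more often mesoderm only (1405 against 738) and distal peaks more often endoderm only (3683 against 1634). Both orders held at equal length, where only the distal one could have changed.

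Endoderm-only and mesoderm-only promoters were then read through 20 gene lists of 437 distinct genes. Endoderm-only acetylation was found at 30 listed genes and mesoderm-only acetylation at 37. Their median fold enrichments, 6.58 and 6.60, were close to those over all 738 and all 1405 genes, 6.23 and 6.54. The 37 mesoderm-only genes could not be lost at equal length, because only the endoderm list was cut. Of the 30 endoderm-only genes 25 stayed so, and the 5 that were lost were the weak peaks of Car4, Gsc, Krt18, Ocln and Rara. These 5 calls rest on the weakest part of the endoderm list. With a window of 2500 bp, 5 listed genes became acetylated in both lineages: Foxh1, which has an endoderm peak 1210 bp from its start, and Rara, Krt18, Grhl2 and Sparc, which have mesoderm peaks 1073, 2013, 1384 and 1906 bp from theirs.

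General pluripotency genes differed in one direction only. Of 19 general pluripotency genes, 5 were in endoderm only (Tdgf1, L1td1, Lin28b, Foxd3 and Utf1) and none in mesoderm only, against 3.37% and 6.42% of all genes. Tdgf1, the Nodal co-receptor Cripto, had the strongest peak of any listed gene on this side, 2008 bp long at chromosome 9, 110945495 to 110947502, with a fold enrichment of 21.1 in WT endoderm and no call in WT mesoderm. Its promoter was also called in both arid4b-delta lists, at 12.6 in endoderm and 10.7 in mesoderm, so WT mesoderm alone of the 4 acetylation lists lacked it. H3K4me3 at Tdgf1 was called at 8.59 in WT endoderm and not called in WT mesoderm.

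L1td1, an RNA-binding protein of pluripotent cells, had 11.5 in WT endoderm and 11.5 and 12.1 in arid4b-delta endoderm and mesoderm. Lin28b, which blocks let-7 maturation, had 9.47 in WT endoderm and 11.3 and 9.44 in the arid4b-delta lists. Utf1, a chromatin protein of pluripotent cells, had a weak peak of 4.87 in WT endoderm with 11.8 and 8.41 in arid4b-delta. These 3 genes, like Tdgf1, were therefore missing only from the WT mesoderm list. The forkhead repressor gene Foxd3 differed from them, with 6.25 in WT endoderm, no call in any other acetylation list, and H3K27me3 in all 4 H3K27me3 lists.

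Naive pluripotency genes had few acetylated promoters, 2 of 16 in each list, with 1 in each lineage only. Nanog, a core factor of the naive state, had 5.95 in WT endoderm, no call in WT mesoderm or arid4b-delta endoderm, and 8.65 in arid4b-delta mesoderm. The T-box factor gene Tbx3 had 5.45 in WT mesoderm only. Of 15 primed epiblast genes, 11 were acetylated in endoderm and 9 in mesoderm, with Fgf5, Otx2 and Car4 in endoderm only and the DNA methyltransferase gene Dnmt3b in mesoderm only, at 4.64. Beside these 2 lists, 3.37% of all genes were in endoderm only and 6.42% in mesoderm only. At equal length the primed genes were even, Fgf5 and Otx2 against Dnmt3a and Dnmt3b. Fgf5, the growth factor that marks the postimplantation epiblast, had 9.73 in WT endoderm and 7.88 and 12.1 in arid4b-delta endoderm and mesoderm. Its H3K27me3 was called in WT mesoderm, at 3.29, and in none of the other H3K27me3 lists. The homeobox gene Otx2, an anterior epiblast factor, had 6.70 in WT endoderm, 6.56 in arid4b-delta endoderm and 8.70 in arid4b-delta mesoderm.

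The streak list was divided between the lineages. Nodal, its inhibitor Lefty1 and the organiser gene Gsc were in endoderm only, whereas the posterior streak genes T, Tbx6, Mesp2 and Cdx2 were in mesoderm only, out of 25 genes. Over all genes the shares were 3.37% in endoderm only and 6.42% in mesoderm only. Nodal had 11.8 in WT endoderm, 9.64 in arid4b-delta endoderm and 6.35 in arid4b-delta mesoderm, with H3K4me3 at 10.6 and 9.06 in WT endoderm and mesoderm. H3K27me3 at Nodal was called in WT mesoderm only, at 4.38. Lefty1 had 9.82 in WT endoderm and 15.3 in arid4b-delta endoderm, and no call in either mesoderm list, with H3K27me3 at 2.002 in WT mesoderm and none in WT endoderm. Lefty1 is the listed gene on the endoderm side whose lineage difference had the same direction in both genotypes with no mesoderm call at all.

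Each of the 4 posterior streak genes had the opposite pattern. T, the Brachyury factor, had 6.77 in WT mesoderm at chromosome 17, 8433798 to 8433954, Tbx6 had 5.33, Mesp2, a segmentation factor, 5.57, and Cdx2, a caudal homeobox factor, 7.11. None of them was called in WT endoderm or in either arid4b-delta acetylation list. H3K27me3 in WT endoderm was called at all 4, at 1.71, 1.495, 2.03 and 2.07, and in WT mesoderm at Cdx2 alone, at 2.32. The 4 WT endoderm values lie below the median of that list, 2.12. H3K4me3 at T was present in both WT lists, 10.8 in endoderm and 13.1 in mesoderm, so its start carried the mark on both sides while acetylation was called on one.

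Paraxial and intermediate mesoderm genes were on the mesoderm side. Of 26 genes, 8 were acetylated in mesoderm only, against 6.42% of all genes, and none in endoderm. They were the Notch ligand genes Dll1 (9.41) and Dll3 (6.18), the Notch-modifying glycosyltransferase gene Lfng (8.66), the transcription factor genes Foxc1 (9.76) and Twist1 (7.76), the phosphatase and co-activator gene Eya1 (10.2), the growth factor receptor gene Pdgfra (5.57) and the Wnt enhancer gene Rspo3 (4.88). In WT endoderm 5 of the 8 carried H3K27me3 and 6 carried H3K4me3, and in WT mesoderm 1 of them, Foxc1, carried H3K27me3 and all 8 carried H3K4me3. Dll1 shows this pattern: H3K4me3 was 5.86 in WT endoderm and 14.2 in WT mesoderm, and H3K27me3 was 3.32 in WT endoderm and not called in WT mesoderm. Of the 8 genes only Eya1 had acetylation in arid4b-delta, at 6.65 in mesoderm.

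Of 30 Wnt pathway genes, 17 were acetylated in either lineage and 9 of these in both. Those that differed also lay mainly on the mesoderm side. There were 7 in mesoderm only (6.42% over all genes) and 1, the receptor gene Fzd8 (7.27), in endoderm only (3.37%). The 7 are named next. The ligand gene was Wnt5a (6.74), and Wls (5.45) codes for the carrier that secretes Wnt ligands. The receptor genes were Fzd1 (9.10), Fzd3 and the co-receptor gene Lrp6 (18.8), joined by Znrf3, a ligase that removes Frizzled receptors. Lef1, a transcription factor that acts with beta-catenin, had a peak of 2114 bp at chromosome 3, 131110224 to 131112337, with 13.3 in WT mesoderm. Lef1 had no acetylation call in the other 3 lists, while Lrp6 had 15.3 and 13.6 in arid4b-delta endoderm and mesoderm and lacked a call in WT endoderm only. Axin2, a feedback inhibitor and standard readout of Wnt signalling, was acetylated in both WT lists, at 22.4 in endoderm and 32.1 in mesoderm.

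Epithelial genes stood on the endoderm side. Of 27 genes for junctions, keratins and their regulators, 15 were acetylated in endoderm and 7 in mesoderm: 8 were in endoderm only (3.37% over all genes), none in mesoderm only (6.42%) and 7 in both. Spint2 had 13.9 in WT endoderm with 12.7 and 17.3 in arid4b-delta endoderm and mesoderm. Crb3 had 11.1 in WT endoderm with 7.37 and 6.95. Both were missing from the WT mesoderm list alone.

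The grainyhead factor gene Grhl2, a regulator of epithelial junction genes, had 9.13 in WT endoderm, and a WT mesoderm peak lay just beyond the window. Rab25 had 7.76, the junction adhesion molecule gene F11r 6.12, the tight junction gene Marveld3 5.95, Cldn7 5.61 and Ocln 4.09 in WT endoderm. Among the definitive endoderm genes, Cldn6 (12.4) and Cldn4 (7.12) followed the same pattern, and Cldn6 had 9.83 and 18.5 in the arid4b-delta lists. E-cadherin was not lost from the mesoderm list: Cdh1 had 17.2 in WT endoderm and 7.17 in WT mesoderm.

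The mesenchymal list went the other way, with 6 of 19 genes in mesoderm only (6.42% over all genes) and 1, the matrix gene Sparc (6.34), in endoderm only. N-cadherin, Cdh2, had 10.1 in WT mesoderm and no call in the other acetylation lists, with H3K27me3 at 2.75 in WT endoderm and none in WT mesoderm. Of the genes named after their values were seen, fibronectin (Fn1) had 7.88 and vimentin (Vim) 3.60 in WT mesoderm, and the others were Mmp2, Mmp14 and Ets2. The Hox clusters contributed Hoxb2 (8.70) and Hoxa4 (5.56), the latter also named after its value was seen, out of 39 genes, both in mesoderm only and both with H3K27me3 in both WT lineages. That share of the Hox list was below the 6.42% over all genes.

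The remaining pathway lists were divided. Over all genes 3.37% were in endoderm only and 6.42% in mesoderm only, and the counts below are too small to show a lean of any list. Of 22 Nodal and TGF-beta genes, Pmepa1, a feedback inhibitor of the pathway (10.5), and Ltbp1, which stores latent TGF-beta (6.47), were in endoderm only, and the receptor gene Tgfbr1 (5.10), the Nodal effector gene Foxh1 (3.94) and the activin antagonist gene Fst (6.60) in mesoderm only. Of 22 BMP genes, Bmp7 (7.63) and Bmper (3.85) were in mesoderm only and none in endoderm only. Of 27 FGF and retinoic acid genes, Fgf15 (6.15) and the receptor gene Rara (4.51) were in endoderm only and Fgf10 (6.54) in mesoderm only. The neuroectoderm list of 27 genes held 1 gene of either kind, Irx3 (6.73), in mesoderm only.

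**Figure D2:**
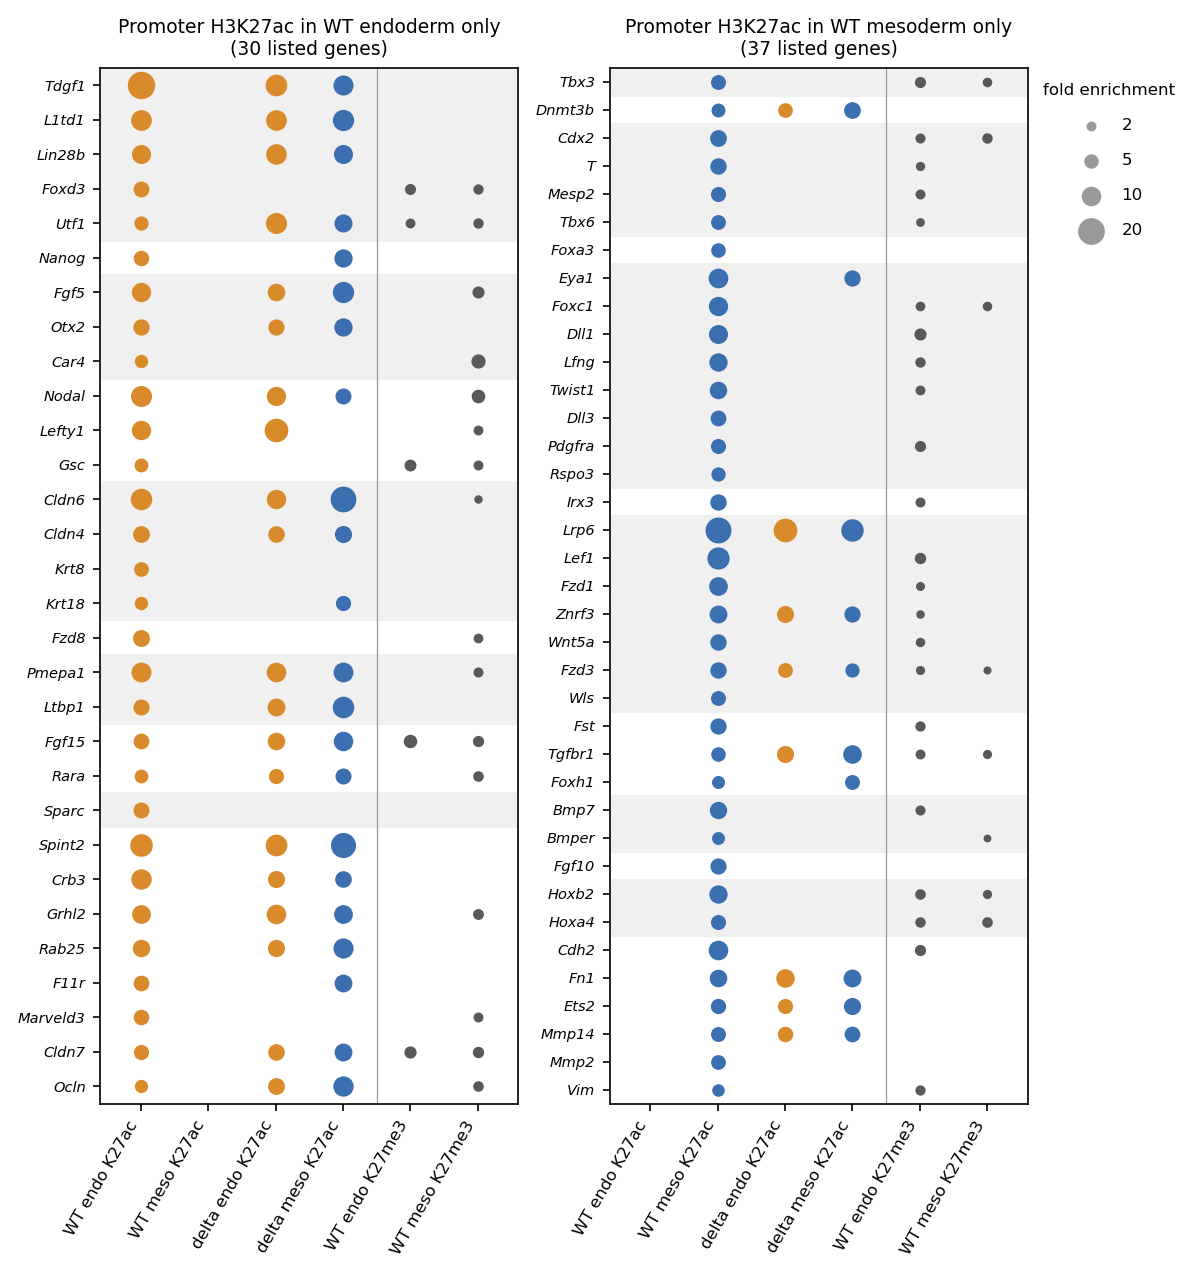
Fold enrichment of promoter peaks (point area) at the 30 listed genes in WT endoderm only and the 37 in WT mesoderm only, in the 4 H3K27ac lists and, right of the grey line, the 2 WT H3K27me3 lists. No point means no peak, and shaded bands separate the gene lists. Endoderm-only genes mostly also had points in arid4b-delta (23 of 30), whereas mesoderm-only genes mostly had none (27 of 37 without). Over all 738 endoderm-only promoters 26.7% had no arid4b-delta call, and over all 1405 mesoderm-only promoters 34.9%.

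The 2 sides of the listed genes differed in the arid4b-delta libraries, which had no part in the choice. Of the 30 endoderm-only genes, 20 were acetylated in arid4b-delta endoderm and 22 in arid4b-delta mesoderm, and 7 in neither. Of the 37 mesoderm-only genes, 8 were acetylated in arid4b-delta endoderm, 10 in arid4b-delta mesoderm and 27 in neither. Where H3K27me3 was called in 1 WT lineage only, it was nearly always the lineage without acetylation. Of the endoderm-only genes 11 had it in WT mesoderm and not in WT endoderm, and none the reverse. Of the mesoderm-only genes 16 had it in WT endoderm and not in WT mesoderm, and 1 the reverse. The acetylated lineage also had H3K27me3 at 5 of the 30 endoderm-only and 8 of the 37 mesoderm-only genes. Over all 738 endoderm-only promoters 26.7% were acetylated in neither arid4b-delta list, close to the listed 7 of 30. Over all 1405 mesoderm-only promoters it was 34.9%, below the listed 27 of 37. The lists hold many developmental genes, so their counts cannot be carried over to the promoters at large.

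Over all 738 endoderm-only promoters, H3K4me3 was called at 91.5% in WT endoderm and 91.6% in WT mesoderm. H3K27me3 was called at 6.10% in WT endoderm and 5.56% in WT mesoderm, with 27 promoters in endoderm only and 23 in mesoderm only. The pattern of the listed endoderm genes was thus not that of this group as a whole. Over all 1405 mesoderm-only promoters, H3K4me3 was called at 95.7% in WT endoderm and 97.9% in WT mesoderm. H3K27me3 was called at 14.6% (12.8% to 16.5%) in WT endoderm and 5.62% (4.48% to 6.96%) in WT mesoderm, with 140 promoters in endoderm only and 14 in mesoderm only. Over all genes the figures were 14.2% and 9.24%, with 1292 and 199 genes in one lineage only, and the endoderm H3K27me3 list was the longer, 10326 peaks against 6150. The part of list length in these counts was not tested. At promoters acetylated in both lineages they were 4.85% and 1.495%.

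The lineage difference itself was seen at a minority of these promoters in arid4b-delta. Endoderm-only promoters were acetylated at 45.9% (42.3% to 49.6%) in arid4b-delta endoderm and at 65.2% (61.6% to 68.6%) in arid4b-delta mesoderm, the lineage in which WT had no call. By gene, 279 were acetylated in both arid4b-delta lists, 60 in endoderm only, 202 in mesoderm only and 197 in neither. Mesoderm-only promoters were acetylated at 35.8% in arid4b-delta endoderm and 59.7% in arid4b-delta mesoderm, with 428 acetylated in both, 75 in endoderm only, 411 in mesoderm only and 491 in neither. Both groups were thus more often marked in arid4b-delta mesoderm, and the arid4b-delta contrast over all genes leaned the same way, with 470 genes in endoderm only (2.15%) and 1647 in mesoderm only (7.53%). Promoters acetylated in both WT lineages were marked at 87.9% and 95.4%.

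**Figure D3:**
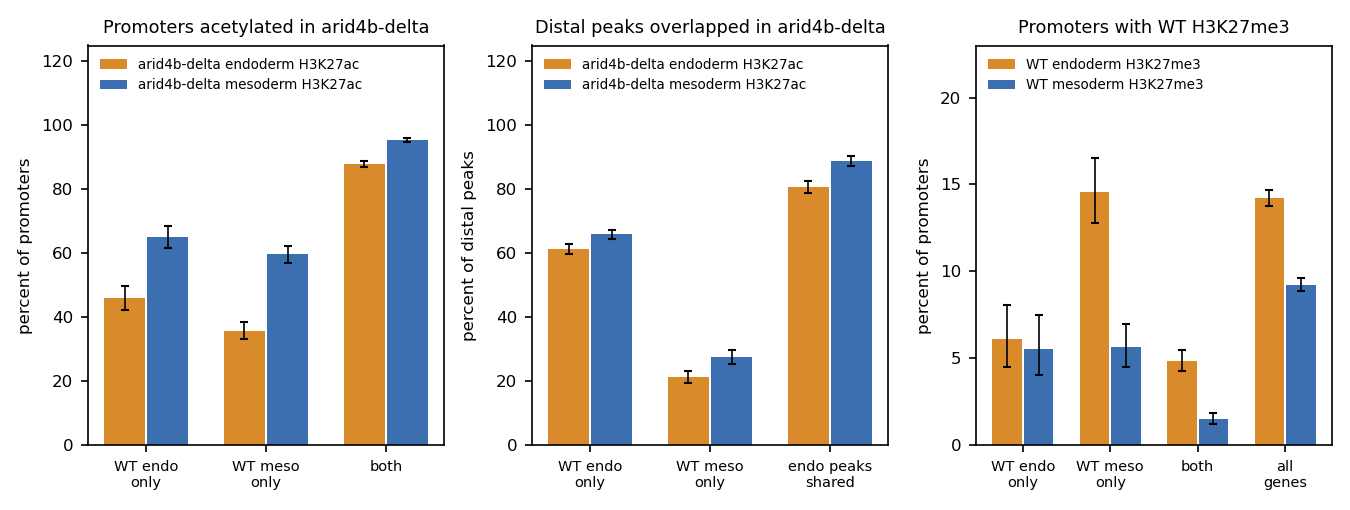
Percent of promoters (left) and of distal peaks (middle) with H3K27ac in arid4b-delta endoderm and mesoderm, and percent of promoters with WT H3K27me3 (right), by WT H3K27ac class. Bars are shares from 1 library each, and error bars are exact 95% intervals for counting error only. Mesoderm-only distal peaks had the lowest overlap with arid4b-delta (21.2% and 27.5%), and mesoderm-only promoters had H3K27me3 more often in endoderm (14.6%) than in mesoderm (5.62%).

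Outside the lists, the strongest promoter peaks with no peak of the other lineage within 5000 bp were at genes of varied function. In endoderm they were at Tmem154 (23.2), Chmp4c, an ESCRT subunit of cytokinesis (19.4), Frmd5 (17.2), the iron exporter gene Slc40a1 (16.7), the sulfotransferase gene Chst15 (16.1), Tmem63a (15.1), Jmjd4 and Snap47, which share a peak (14.6), and the Mediator subunit gene Med19 and Tmx2, which share another (14.1). All 10 were also acetylated in both arid4b-delta lists. In mesoderm they were at Crebbp, which codes for CBP itself (25.3), the Polycomb subunit gene Phc2 (19.5), Rapgef1 (18.4), Uimc1 (17.98), Crebzf (17.7), Rnf146 (17.7), the protein kinase A subunit gene Prkar1a (16.9), Zfp704 (16.9), the integrin adaptor gene Fermt2 (16.8) and Tjap1 (16.6). Crebbp had 10.2 and 37.8 in arid4b-delta endoderm and mesoderm, and 7 of these 10 genes were called in both arid4b-delta lists, Prkar1a and Zfp704 in mesoderm only and Phc2 in neither.

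The strongest endoderm-only distal peaks with no mesoderm peak within 5000 bp included one beside Lefty2, a target of Nodal. The peak with the highest fold enrichment, 37.3, was 3970 bp long at chromosome 17, 32209881 to 32213850, 20411 bp from the start of the epoxide hydrolase gene Ephx3. The next, 30.8, was at chromosome 1, 180888850 to 180890359, 2749 bp from the start of Lefty2, an inhibitor of Nodal. Others had Chd6 (22.0), Cyp4x1 (20.2), Erv3 (19.98), Armc1 (19.8), Zfp831 (19.8), Nwd1 (19.2) and Rab3c (18.6) as nearest genes, at distances from 32174 bp for Nwd1 to 646972 bp for Rab3c. All of these were overlapped by peaks in both arid4b-delta lists, so that they were missing from the WT mesoderm list alone.

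Mesoderm-only distal peaks with no endoderm peak within 5000 bp lay near genes of varied function. The highest fold enrichment was 16.7, at chromosome 15, 101077856 to 101078564, nearest to Fignl2, and other strong peaks were nearest to Tmco5 (15.6), Zfat (15.1), Slc45a1 (14.7), Mn1 (13.3), the adaptor gene Grb2 (13.2), the planar polarity cadherin gene Celsr1 (13.1), Rab11a (12.8) and the matrix gene Tgfbi (12.7). Of these, 5 overlapped WT mesoderm H3K4me3, a mark more usual at starts than at enhancers: those of Fignl2, Tmco5, Zfat, Slc45a1 and Grb2. Among all 1193 mesoderm-only distal peaks with no endoderm peak within 5000 bp, 145 did, so these strong peaks are not typical in this. Those nearest to Fignl2, Celsr1, Rab11a and Tgfbi had no overlap in either arid4b-delta list.

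Clusters of distal peaks also differed between the lineages. In endoderm the genes nearest to the most endoderm-only distal peaks included Il7 (15 peaks), Pcmtd1 (13), G6pd2 (10), Agpat3, Pmepa1, Ddx3x and Cntn5 (9 each), and Chd6 and Dpp6 (8 each), several of them beside long gene-poor stretches, so that nearest does not mean near. The 10 peaks assigned to G6pd2 lay 176749 to 1959631 bp away. Those of Agpat3, a lipid acyltransferase, lay within 13588 to 20051 bp, and none of them was overlapped in arid4b-delta. Those of Pmepa1 lay 17801 to 62974 bp from its start, with the highest at 11.8, beside an endoderm-only promoter.

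In mesoderm the corresponding genes were Atg7 and Hrh1 (8 each, neighbours in the genome with low fold enrichments, at most 6.95 and 4.69), Mid1 (7), and Bach2, Snai1, Zfp36l2, Arid3b, Itpr1, Zfp608 and Irs2 (5 each). In arid4b-delta endoderm and mesoderm 7 and 5 of the Atg7 peaks were overlapped, 8 and 6 of the Hrh1 peaks, and 5 and 4 of the Mid1 peaks. All Mid1 peaks, at most 3.70, and all Zfp36l2 peaks had an endoderm peak within 5000 bp. Snai1 codes for Snail, the E-box repressor of epithelial genes. Its 5 mesoderm-only peaks lay 5055 to 26360 bp from the start with fold enrichments of 3.25 to 10.7, no endoderm peak lay within 5000 bp of any of them, and none was overlapped in either arid4b-delta list. The Snai1 promoter itself had no acetylation call in either WT list.

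Other distal peaks near listed genes are named after their values were seen. In endoderm, Otx2 had 7 endoderm-only distal peaks at 6864 to 85771 bp (highest 11.7), and Lefty1 had 2, at 9448 and 10243 bp (11.9 and 14.9), both overlapped in both arid4b-delta lists. Nodal had 2 weak ones (4.47 and 4.45), and Foxa2 had 2 at 52489 and 53361 bp, the highest at 9.70, with none overlapped in arid4b-delta. Tbx6 had 3 mesoderm-only peaks 3337 to 4549 bp from its start (highest 7.73), and Id3, a BMP target that inhibits helix-loop-helix factors, had 3, the highest at 11.2 and 2672 bp away. Cdh1 had 8 endoderm-only and 3 mesoderm-only distal peaks interleaved over 4906 to 16556 bp.

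By list, endoderm-only against mesoderm-only distal peaks numbered 28 against 4 for primed epiblast genes, 20 against 3 for Nodal and TGF-beta genes, 15 against 4 for naive pluripotency genes and 16 against 3 for epithelial genes. They numbered 2 against 10 for paraxial mesoderm genes, 9 against 10 for BMP genes, 10 against 8 for Wnt genes, 12 against 13 for general pluripotency genes and 1 against 6 for housekeeping genes, beside 3683 against 1634 over all genes. Distal peaks of general pluripotency genes therefore did not lean as their promoters did. Those of Wnt genes were slightly more often endoderm only, but less so than over all genes. The housekeeping list leaned to mesoderm as the paraxial one did. Peaks nearest to 1 gene are not independent of each other.

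Distal peaks of the same lineage were found somewhat more often around endoderm-only promoters. Of the 738 endoderm-only promoters, 84, or 11.4% (9.18% to 13.9%), had an endoderm-only distal peak within 20000 bp, and 29, or 3.93% (2.65% to 5.59%), a mesoderm-only one. At promoters acetylated in both lineages the shares were 6.94% and 4.16%. Of the 1405 mesoderm-only promoters, 4.63% (3.59% to 5.86%) had an endoderm-only and 5.05% (3.97% to 6.33%) a mesoderm-only distal peak, intervals that overlap each other.

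In arid4b-delta, distal peaks of the 2 sides differed more than promoters did. Endoderm-only distal peaks were overlapped by 61.3% (59.7% to 62.8%) in arid4b-delta endoderm and 65.9% (64.3% to 67.4%) in arid4b-delta mesoderm. Of the 3683, 1934 (52.5%) were overlapped in both, 322 (8.74%) in endoderm only, 493 (13.4%) in mesoderm only and 934 (25.4%) in neither. Mesoderm-only distal peaks were overlapped by 21.2% (19.3% to 23.3%) and 27.5% (25.3% to 29.7%), and 1110 of the 1634 (67.9%) by neither. Distal peaks shared by the WT lineages were overlapped by 80.8% and 88.8% of the endoderm peaks. The arid4b-delta lists held 35884 and 22747 peaks, more than either WT list. Within each list the distal peaks in one lineage only were weaker than the shared ones, with median fold enrichments of 6.06 against 7.68 in endoderm and 5.31 against 6.35 in mesoderm, and the part of peak strength in these overlaps was not tested.

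The E-box shown at the outset was, of the 7 motifs, the one whose share differed most between endoderm-only and mesoderm-only starts. CACCTG or its complement lay in the 250 bp before the start at 24.0% (20.9% to 27.4%) of 678 endoderm-only starts, 11.96% (10.2% to 13.9%) of 1288 mesoderm-only starts and 12.1% (11.2% to 13.0%) of 5275 starts acetylated in both, beside 18.8% of starts acetylated in neither and 16.9% of all 20590 starts used. For acetylated genes, only starts that themselves had a peak within 1000 bp were used. The other motifs differed less between endoderm-only and mesoderm-only starts. The octamer core ATGCAAA lay at 5.01% and 2.87% (3.84% of all starts), the GATA motif AGATAA at 5.90% and 4.74% (8.73%), the Lef/Tcf motif ATCAAAG at 2.51% and 2.33% (2.84%), the T-box motif TCACACC at 2.51% and 2.02% (3.06%), the GC box GGGCGG at 58.0% and 66.6% (43.3%) and TATAAA at 6.34% and 5.82% (11.5%), on either strand. No motif of the set contains another. The median GC content was 59.2% at endoderm-only starts, 62.4% at mesoderm-only starts and 62.4% at those acetylated in both.

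Base composition moved with the groups, so the E-box share was taken again over starts of 55 to 65% GC, a choice made after seeing the data: it was 29.0% (23.8% to 34.7%) of 286 endoderm-only starts, 14.8% (11.8% to 18.3%) of 487 mesoderm-only starts and 13.4% of starts acetylated in both, beside 23.4% (21.9% to 24.8%) of starts acetylated in neither and 19.7% of all starts in this range. The intervals of endoderm-only starts and of starts acetylated in neither overlap here. Without the epithelial and definitive endoderm lists the shares were 22.9% and 11.9%. Counted by gene, which removes alternative starts that share sequence, they were 25.7% of 599 and 13.1% of 1128 genes.

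Among the epithelial and definitive endoderm genes, put together after their values were seen, all 10 endoderm-only genes with a promoter sequence held the E-box (Cldn4, Cldn6, Cldn7, Crb3, F11r, Krt18, Krt8, Ocln, Rab25 and Spint2), and 5 of them held at least 2. Of the 5 genes of these lists acetylated in both lineages, Lsr held it and Cldn3, Jup, Spint1 and Tjp1 did not, and of 19 acetylated in neither, 9 held it. The 1 mesoderm-only gene of these lists with a sequence, Foxa3, held it too. Of the other listed endoderm-only genes 1 of 14 held it, Nanog, and of the other listed mesoderm-only genes 4 of 21, Dll1, Dll3, Dnmt3b and T. The E-box was therefore common at the epithelial genes acetylated in endoderm only, not at the pluripotency and Nodal genes of the same group.

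**Figure D4:**
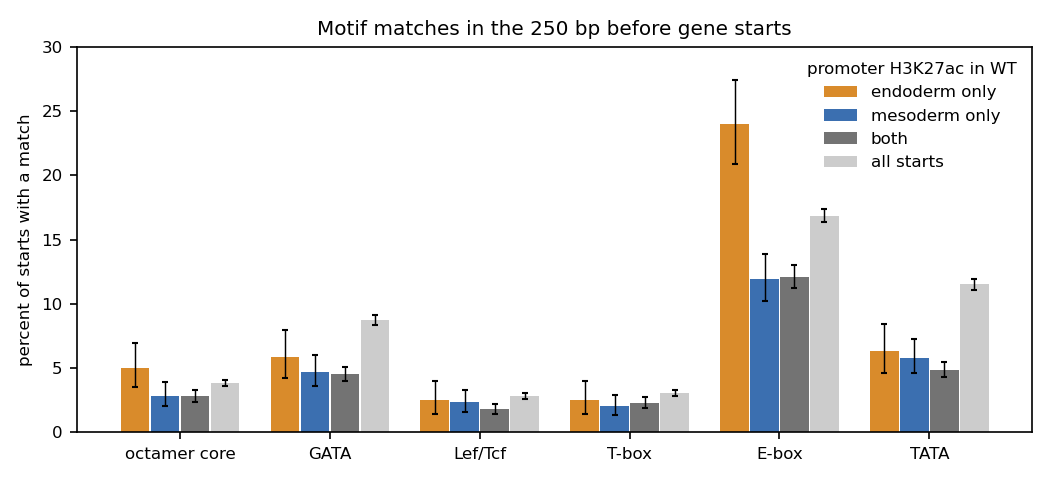
Percent of gene starts with a motif match in the 250 bp before the start, by promoter H3K27ac class in WT, with all 20590 starts used in light grey. Error bars are exact 95% intervals for counting error only, and the GC box, whose shares are larger, is left out. The E-box stood at 24.0% of endoderm-only starts and at 11.96% of mesoderm-only starts.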

How the data were processed

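The data are ChIP-seq peak lists of H3K27ac, H3K4me3 and H3K27me3, 1 library for each of 12 groups. Reads were processed with Bowtie2, Picard and MACS2 on mm10, per the submitters' processing notes, with no versions given, and settings, peak threshold and use of input are not given in the sources used here. Each deposited list gives, per peak, a position, an integer score, a fold enrichment (a ratio over background) and −log10 p and q values, all the authors' own. It also gives the summit position. The deposited scores and p-values were not used. Whether duplicates were removed is not stated.

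Protein-coding genes numbered 21883. Starts came from RefSeq promoter sequences (GRCm38.p6) for 17491 genes, from the gene end richer in H3K4me3 for 2644, and from both ends for 1748. Because this second step reads the study's own H3K4me3, calls at those genes were also left out once. A promoter counted as acetylated when at least 1 bp of a peak fell within 1000 bp of a start, and a gene was in one lineage only when no start of it had a peak of the other. Distal peaks lay more than 2500 bp from every start and were joined to the gene with the nearest start. Lists were cut to equal length by fold enrichment, ties by −log10 q and position. Motifs were searched as letters on both strands. There is 1 library a group, so no p-value was computed, and depth is unknown.

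Genes were named by rule: for each direction, up to 30 listed genes with a promoter in one lineage only, the 10 strongest unlisted promoters and 10 strongest distal peaks with no peak of the other lineage within 5000 bp, the 10 genes with most lineage-only distal peaks, and 16 fixed genes. Predicted genes were counted and not named. Results for 3 genes that this rule names are not reported here. The members, lists and motifs were chosen with earlier results of these data known. Alternatives were the equal-length cut, stricter thresholds, other windows and other definitions of a shared peak. The overlap code was tested on simulated intervals. Python 3.11.15, numpy 2.4.6, pandas 2.3.3, scipy 1.17.1 and matplotlib 3.10.9 were used.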

Additional observations from a re-analysis of the deposited data

Results flagged for a closer look

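At 3 listed genes the lineage difference had opposite directions in the 2 genotypes, with a promoter peak in WT endoderm and not WT mesoderm, and in arid4b-delta mesoderm and not arid4b-delta endoderm. These differences were not tested, since there is 1 library a group. Nanog, a core pluripotency factor, had a fold enrichment of 5.95 in WT endoderm and 8.65 in arid4b-delta mesoderm. F11r, a junction adhesion molecule, had 6.12 and 8.17. Krt18, a keratin of simple epithelia, had 4.16 and 5.66, and its WT endoderm peak was among those dropped at equal length.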

How the results depend on the processing

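Mesoderm's share of the promoters in one lineage only, 65.6%, was 72.6% at equal length, 72.7% with peaks of at least 300 bp and 69.3% when a peak had to be among the highest of its own list and absent from the full other list. Endoderm's share of the distal peaks in one lineage only, 69.3%, was 62.7% at equal length, 80.1% in the upper 50% of each list (1458 endoderm-only and 363 mesoderm-only peaks), 73.4% at −log10 q of at least 5 and 75.7% with peaks of at least 300 bp (1517 and 487). With members from equal-length lists, 67.5% of endoderm-only distal peaks were overlapped in arid4b-delta mesoderm. Mesoderm-only promoters were then acetylated at 40.6% in arid4b-delta endoderm and 63.3% in arid4b-delta mesoderm, and mesoderm-only distal peaks overlapped at 27.9% and 34.5%. At 55 to 65% GC the E-box share was 29.0% of endoderm-only and 14.8% of mesoderm-only starts. Neither the promoter nor the distal direction changed under these or the other alternatives run, though the equal-length cut could not have reversed that of the promoters. Some gene lists with few differing genes became even, such as the primed epiblast list at equal length and the streak list with a window of 2500 bp. The causes were not tested. Of the remaining values, 78 for group results moved by less than their interval or by less than 1.5 times for counts. The 82 values for named genes whose call held are those of the same peak in both lists. They could not move and are no check. Named genes without a peak in the cut list have no value there. The 4 alternatives on gene starts and on the E-box (its GC range, omitted lists and 1 value a gene) were added after seeing the data. No paired analysis was possible because each group has 1 library and the labels carry no replicate numbers. Depth, peak threshold and the spread between replicates are unknown, so no difference here can be set against replicate error.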
